A study of Rattus norvegicus with 2 samples.

Results

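Genes of the interleukin-6 (IL-6) family were followed in single cardiac cells of neonatal rats after a saline or a lipopolysaccharide (LPS) treatment. The 7 members were taken by symbol from a list chosen with earlier results of these data known. They were the ligands *Il6*, *Lif* and *Il11* and the receptor genes *Il6r*, *Il6st*, *Osmr* and *Lifr*. All 7 were found among the 25399 genes of the count matrices. Hearts of Sprague-Dawley rats aged 1 to 3 days, both sexes pooled, were digested with trypsin, the cells were enriched on Percoll for intrinsic cardiac adrenergic (ICA) cells, and the culture received saline (control) or LPS at 1 µg/mL for 2 h. Each condition is 1 library of pooled cells, so no test between conditions was possible. The intervals given below are 95% intervals that cover counting error only.

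IL-6 family cytokines signal through receptor complexes that share gp130, the product of *Il6st*. IL-6 binds its own receptor chain, encoded by *Il6r*, before it engages gp130, and a shed form of that chain lets IL-6 act on cells that lack it. Leukemia inhibitory factor uses the chain encoded by *Lifr*, oncostatin M uses *Osmr* or *Lifr*, and IL-11 uses its own chain. In the heart, IL-6 is known as a cytokine of sepsis and injury, and the pathway runs through JAK kinases and STAT3.

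The control library held 11531 cells with 152624585 unique molecular identifiers (UMIs, each a counted transcript) with 12479 UMIs in the median cell. For LPS there were 12689 cells and 127580475 UMIs, with 9432 in the median cell. The authors' clusters, numbered 0 to 10, were used as deposited and covered 11529 control and 12681 LPS cells. The authors named clusters 0, 1 and 7 fibroblast, 3 ICA and cardiomyocyte, 4 and 5 endothelial and 6 macrophage, and gave clusters 2, 8, 9 and 10 no cell type. Cluster 2 was led by *Rgs5*, *Kcnj8* and *Abcc9* and is called mural-like here. The libraries shared 194 cell barcodes, 1.68% of the control and 1.53% of the LPS barcodes, and 76 of these lay in the same cluster. The labels call all cells ICA cells, but of the catecholamine enzymes *Dbh* (25.4 and 24.8 CPM, defined below, in control and LPS) and *Ddc* (49.6 and 56.9) were found in cluster 3, while *Th*, the first enzyme of that pathway, had 0 UMIs there in both libraries. Fibroblast markers were found in every cluster. Whether this was RNA of other cells or the cells' own was not tested. The 9 fibroblast markers, summed, stood in macrophages at 33.4% of their level in cluster 0 in control and 27.8% in LPS, and in endothelial cluster 4 at 28.1% and 22.1%.

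Levels are given as CPM, the summed UMIs of a gene per 1000000 UMIs of the cluster, from the 3′ ends of transcripts, and are compared between clusters and conditions but not between genes. A ratio is LPS over control and was counted only where both libraries together held at least 20 UMIs. The median gene shifted between the libraries by −0.13 on the log2 scale over all cells, −0.13 in cluster 0, −0.12 in cluster 2 and −0.31 in cluster 6, and by less than 0.1 in the other clusters described. The 10 leading genes of a cluster were taken among genes found in at least 25% of its cells over both libraries. No member reached that share in any cluster, so none could be a leading gene.

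The bases before the start of *Il6* and *Il11*, the 2 ligands with the most UMIs, are shown. They hold letters that match motifs of factors known to act downstream of LPS, and binding was not tested. They come from the RefSeq promoter table for GRCr8, which matched 6 of the 7 members (not *Lif*), and may not be the build used for counting. Capitals mark matches to the searched motifs, which were GGANTTTCC and GGGNNTTTC for NF-kappaB, TGANTCA for AP-1, TGACGTCA for the cAMP response element, TTNNGNAA for C/EBP factors and TATAAA for a TATA box, on either strand.
Il6, chr4:5894576-5894825, minus strand: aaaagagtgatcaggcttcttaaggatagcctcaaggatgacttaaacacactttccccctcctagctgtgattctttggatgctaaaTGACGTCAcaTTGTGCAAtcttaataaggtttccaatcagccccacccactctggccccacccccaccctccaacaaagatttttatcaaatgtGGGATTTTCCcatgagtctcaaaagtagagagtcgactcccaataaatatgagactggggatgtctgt
Il11, chr1:78098372-78098621, plus strand: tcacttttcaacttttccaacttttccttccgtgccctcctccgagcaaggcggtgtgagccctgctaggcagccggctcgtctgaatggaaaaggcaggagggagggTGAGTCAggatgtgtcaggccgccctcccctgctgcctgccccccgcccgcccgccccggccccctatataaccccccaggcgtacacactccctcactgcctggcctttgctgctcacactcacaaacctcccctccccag
The *Il6* sequence held the cAMP response element from 162 bases before the start, the C/EBP letters from 152 bases before it and both NF-kappaB forms, which overlap in GGGATTTTCC, from 68 and 67 bases before it. The *Il11* sequence held the AP-1 letters from 142 bases before the start. Over 33469 promoter windows of 300 bases, GGANTTTCC was present in 1.28%, GGGNNTTTC in 4.53%, TGACGTCA in 1.83%, TGANTCA in 7.33%, TTNNGNAA in 41.3% and TATAAA in 14.2%. Among the other matched members, the windows of *Il6r*, *Il6st* and *Lifr* held TTNNGNAA and that of *Osmr* held TGANTCA. A match describes letters only.

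*Il6* (ENSRNOG00000010278) was the member that differed most between the conditions. Over all cells with a cluster it went from 184 UMIs in control (1.21 CPM, 1.04 to 1.39) to 1541 UMIs in LPS (12.1 CPM, 11.5 to 12.7), a ratio of 10.0 (8.59 to 11.7). Without cluster 6 the ratio was 6.75 (5.77 to 7.95). Of the LPS UMIs 507 lay in that cluster and 1034 in the others. *Lif* was at a ratio of 2.90 (1.66 to 5.24) and *Il11* at 2.21 (1.85 to 2.66) over all cells. With *Il6*, these 3 ligands were at least 2-fold higher among the 7 members, where 3.55% of the 14347 genes counted over all cells were at least 2-fold higher. No member was at least 2-fold lower, against 10% of all genes. The median log2 ratio of the 7 members was 0.10, against −0.15 for the 14347 genes counted. As the members were chosen with earlier results of these data known, these values are descriptions.

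In macrophages *Il6* was nearly absent in control and the highest of any cluster in LPS. The 281 control macrophages of cluster 6 held 1 UMI (0.321 CPM, 0.00813 to 1.79), and the 291 LPS macrophages held 507 (204 CPM, 187 to 223). With 1 control UMI the ratio of 635 has a counting interval of 114 to 25140. Cluster 6 made up 1.95% of the UMIs of the LPS library and held 32.9% of its *Il6*. The level in macrophages was 9.62 times (8.10 to 11.5) that in the mural-like cluster 2, the next in order. No other pair of neighbours in the order of *Il6* levels in LPS was separated by its counting interval. That order includes cluster 10, which held 2 *Il6* UMIs and stood between clusters 2 and 0. Set directly beside fibroblast cluster 0, cluster 2 stood at 238% (201 to 282%) of its level.

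Fibroblasts held the largest number of *Il6* UMIs. Cluster 0 went from 123 UMIs (1.36 CPM) in control to 656 (8.89 CPM) in LPS, a ratio of 6.54 (5.39 to 8.0), and held 42.6% of the *Il6* of the LPS library with 57.8% of its UMIs. Cluster 1, whose leading genes are those of dividing cells, went from 12 to 101 UMIs (0.4997 to 5.02 CPM), a ratio of 10.0 (5.50 to 20.1). In clusters 0 and 1 the lower bound of the ratio lay above 5, and fibroblast cluster 7 held too few *Il6* UMIs to be counted.

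The mural-like cluster 2 had the highest *Il6* level outside macrophages. It went from 28 UMIs (2.99 CPM, 1.99 to 4.32) in control to 178 (21.2 CPM, 18.2 to 24.5) in LPS, a ratio of 7.09 (4.74 to 10.97). In LPS its level was 238% (201 to 282%) of that in fibroblast cluster 0, and in control it was 220% (140 to 334%). Cluster 2 held 11.6% of the *Il6* UMIs of the LPS library and 6.58% of all UMIs. Its *Il6* was higher than that of fibroblast clusters 0 and 1 in both conditions. Fibroblast cluster 7 held 2 UMIs in control (1.37 CPM, 0.166 to 4.95), and this interval overlaps that of cluster 2.

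Levels in the endothelial clusters and in cluster 3 were lower than in the mural-like cluster 2 in both conditions. In endothelial cluster 4 *Il6* went from 12 to 38 UMIs (1.08 to 3.90 CPM), a ratio of 3.62 (1.85 to 7.61). In endothelial cluster 5 it went from 2 to 30 UMIs (0.471 to 6.59 CPM), a ratio of 14.0 (3.55 to 121). In cluster 3, of ICA cells and cardiomyocytes, it went from 3 to 19 UMIs (0.424 to 3.47 CPM), a ratio of 8.18 (2.41 to 43.2). These 3 clusters rest on few control UMIs, and their LPS intervals overlap. Clusters 7 to 10 each held at most 9 *Il6* UMIs in either library and were not counted.

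**Figure D1:**
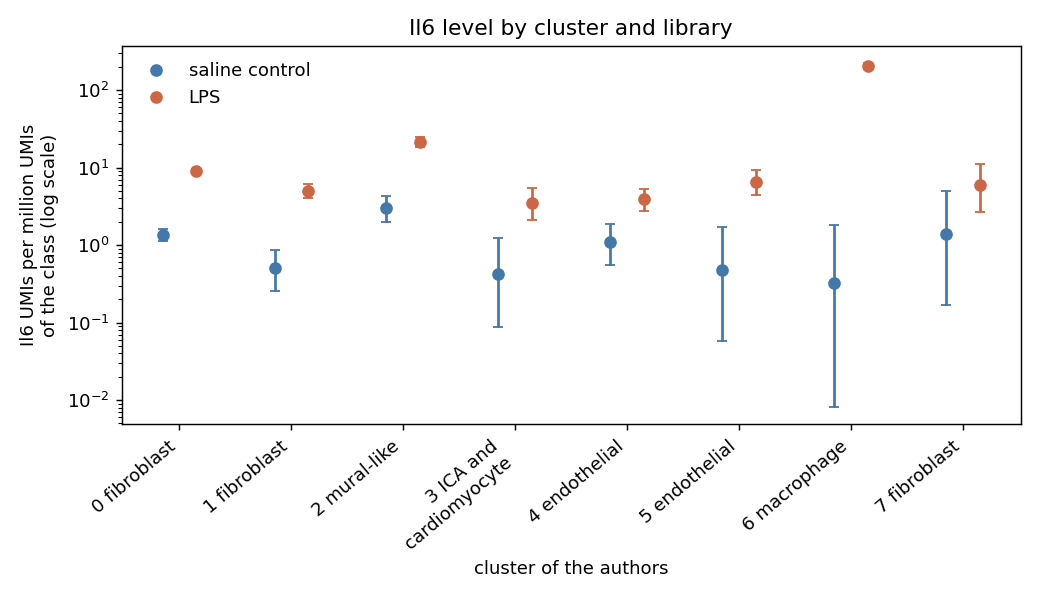
*Il6* level in CPM in each cluster (log axis) in the control and the LPS library, with 95% Poisson intervals as bars. The LPS point lies above the control point in each of the 8 clusters, and the LPS macrophages at 204 CPM stand far above the mural-like cluster at 21.2 CPM.

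As RNA of lysed cells can enter the droplets of others, *Il6* in LPS was set beside the markers of the clusters that hold most of it. In fibroblast cluster 0, *Il6* stood at 4.36% (3.88 to 4.91%) of its macrophage level, while the 10 macrophage markers, summed, stood at 0.50% and ranged singly from 0.20 to 1.01%. In the mural-like cluster 2, *Il6* stood at 10.4% (8.71 to 12.4%) of the macrophage level and the markers at 0.32% (0.15 to 0.46%). In both clusters the interval of *Il6* lay above the highest single marker. In cluster 3 *Il6* stood at 1.70% (1.01 to 2.68%) of the macrophage level, with markers at 0.49% (0 to 2.17% singly), and in cluster 4 at 1.91% (1.34 to 2.66%), with markers at 0.65% (0 to 1.32% singly). In cluster 5 *Il6* stood at 3.23% (2.16 to 4.67%), with markers at 1.59% (0 to 16.5% singly). It lay within the range of the single markers there, as it did in cluster 3, and the top of each range is 1 marker. The intervals of the summed markers, 0.36 to 0.66% in cluster 3 and 1.32 to 1.90% in cluster 5, lay below those of *Il6*. They cover counting error and not the spread between markers. In each of clusters 3, 4 and 5, 1 of the 10 markers was at 0. The part of macrophage RNA in these levels was not tested.

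Against fibroblasts the picture differed by cluster. Relative to cluster 0, *Il6* in cluster 3 stood at 39.0% (23.3 to 61.4%) and the 9 fibroblast markers at 32.3% (18.3 to 62.2% singly). The *Il6* level of cluster 3 thus lay within the range of the single fibroblast markers there. In endothelial cluster 4 *Il6* stood at 43.9% (30.8 to 60.9%) and the markers at 22.1% (16.7 to 30.8% singly). In endothelial cluster 5 *Il6* stood at 74.1% (49.6 to 107%) and the markers at 20.6% (17.0 to 43.8% singly). In cluster 2 the markers stood at 39.4% (19.0 to 77.7% singly) beside the 238% of *Il6*. None of the 9 markers was at 0 in these clusters. The part of fibroblast RNA in the LPS to control ratios of clusters 3, 4 and 5 was not tested. Leaving out cells outside cluster 6 that held any macrophage marker UMI, 3.17% of the LPS cells in cluster 2 and 8.29% in cluster 0, gave *Il6* levels in LPS of 21.4 and 8.91 CPM there. RNA of lysed macrophages can reach a cell without a marker UMI, so this step could not remove it, and its part was not tested.

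**Figure D2:**
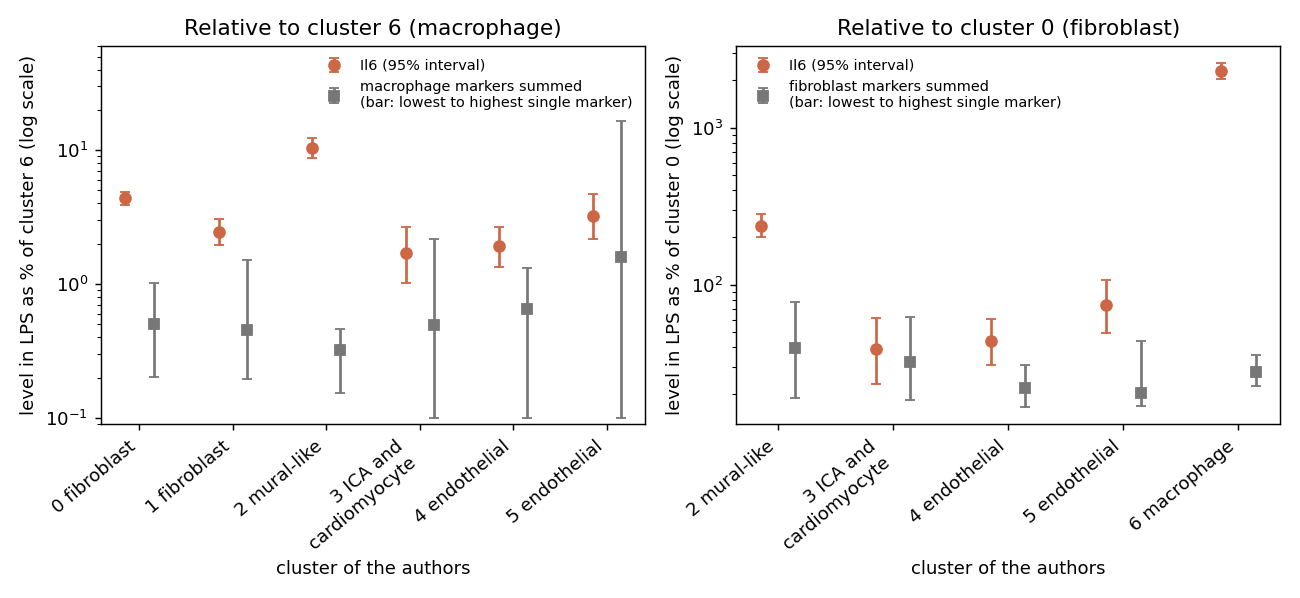
*Il6* level in the LPS library as a percentage of its level in macrophage cluster 6 (left) or fibroblast cluster 0 (right), on log axes, with 95% intervals, beside the summed markers of that cluster, whose bars run from the lowest to the highest single marker and are drawn from 0.1% where a marker was at 0. In cluster 2 *Il6* lies above the marker range on both sides, and in cluster 3 it lies within both.

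*Il6* was also uneven among macrophages. With each cell thinned to 3000 UMIs, 64 of 290 LPS macrophages (22.1%, 17.4 to 27.3%) held an *Il6* UMI, against 1 of 281 in control (0.356%), and without thinning 32.3% and 0.356% did. The thinned LPS share was 6.46% in cluster 2, 2.52% in cluster 0, 2.29% in cluster 5 and 1.51% in cluster 4 (9.85%, 7.34%, 5.64% and 4.01% unthinned). In cluster 3, set beside as a class expected to be low in ligand transcripts, the share was 0.540% (5 of 926 cells, 1.83% unthinned). Its median was 5269 UMIs per cell, against 6900 in LPS macrophages. In LPS, *Il11* in cluster 3 stood at 86.3% (47.5 to 145%) of its cluster 0 level, on 15 UMIs. The fibroblast markers there stood at 32.3% (18.3 to 62.2% singly). Cluster 3 was not taken as a zero level for ligands, and the part of fibroblast RNA in its *Il11* was not tested. In LPS macrophages 15 cells, 5.17% of them, carried 50% of the thinned *Il6* UMIs, and the highest cell carried 10. The variance of *Il6* over cells was 3.53 times its mean there, while genes of like mean had a median of 1.09 and a 95th percentile of 1.67. In cluster 2 the same value was 1.44 (like genes 1.01, 95th percentile 1.12) and in cluster 0 it was 1.18 (1.01 and 1.06).

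*Lif* (ENSRNOG00000007002), the ligand of the *Lifr* chain, was sparse. It had 19 UMIs in control (0.124 CPM) and 46 in LPS (0.361 CPM). Fibroblast cluster 0 held 12 and 34 of these, a ratio of 3.48 (1.76 to 7.37), and no other cluster reached 20 UMIs. In macrophages *Lif* had 1 UMI in control and 0 in LPS, where a count of 0 allows up to 1.21 CPM.

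*Il11* (ENSRNOG00000017386), known for its part in fibrosis, had most of its UMIs in fibroblasts, as did all transcripts together. In cluster 0 it went from 140 UMIs (1.55 CPM) to 234 (3.17 CPM), a ratio of 2.05 (1.66 to 2.55). In cluster 1 it went from 25 to 49 UMIs (1.04 to 2.43 CPM), a ratio of 2.34 (1.42 to 3.95). In the mural-like cluster 2 it went from 11 to 31 UMIs (1.17 to 3.69 CPM), a ratio of 3.14 (1.54 to 6.93). Clusters 0 and 1 held 67.2% and 14.1% of the *Il11* of the LPS library and 57.8% and 15.8% of all its UMIs. The intervals of the levels in clusters 0, 1, 2 and 3 overlap in LPS, where cluster 3 stood at 2.74 CPM. Macrophages held 1 *Il11* UMI in control and 3 in LPS (0.321 and 1.21 CPM), and endothelial cluster 4 held 8 and 5 (0.719 and 0.514 CPM). Both clusters held too few to be counted. In LPS the macrophage level was 38.0% (7.79 to 113%) of that in cluster 0. Cluster 3 held 2 and 15 UMIs, below the number counted. In cluster 0, *Il6*, *Lif* and *Il11* were the 3 of 7 members at least 2-fold higher, where 3.64% of genes were, and no member was at least 2-fold lower, where 11.5% of genes were. These counts depend on the processing, since over the alternatives tried the log2 ratio of *Il11* went down to 0.94 in cluster 0, 0.70 in cluster 1 and 0.99 in cluster 2, all under 2-fold, and that of *Il6r* in cluster 0 went to −1.51 with thinned cells, past 2-fold lower.

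*Il6r* (ENSRNOG00000020811), the IL-6 binding chain, differed in direction between clusters. Over all cells it went from 402 UMIs (2.63 CPM) to 239 (1.87 CPM), a ratio of 0.711 (0.604 to 0.837). Macrophages had the highest control level, with 52 UMIs (16.7 CPM, 12.5 to 21.9), and had 9 UMIs (3.62 CPM, 1.66 to 6.87) in LPS, a ratio of 0.217 (0.094 to 0.444). Fibroblast cluster 0 went from 202 to 90 UMIs (2.23 to 1.22 CPM), a ratio of 0.547 (0.422 to 0.704), cluster 1 from 35 to 15 UMIs, a ratio of 0.511 (0.259 to 0.960), and the mural-like cluster 2 from 28 to 8 UMIs (2.99 to 0.952 CPM), a ratio of 0.319 (0.125 to 0.717). In all 4 of these clusters the LPS level was the lower one.

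In the endothelial clusters *Il6r* was higher in LPS. Cluster 5, led by *Selp* and *Plvap*, went from 4 UMIs (0.941 CPM, 0.256 to 2.41) to 28 (6.15 CPM, 4.09 to 8.89), a ratio of 6.54 (2.29 to 25.6). Cluster 4, led by *Gpihbp1*, *Apln* and *Fabp4*, went from 34 UMIs (3.06 CPM) to 50 (5.14 CPM), a ratio of 1.68 (1.07 to 2.68). In cluster 3 it had 32 UMIs in control (4.52 CPM) and 34 in LPS (6.20 CPM), and the interval of its ratio of 1.37 (0.822 to 2.297) includes no change. The order of levels differed between the libraries. In control, macrophages stood first, separated by their interval from clusters 0 to 5, and in LPS clusters 3, 5 and 4 stood above macrophages, with intervals that overlap. In LPS, *Il6r* in clusters 3, 4 and 5 stood at 508%, 421% and 504% of its level in fibroblast cluster 0, where fibroblast markers in the same clusters stood at 32.3%, 22.1% and 20.6%.

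**Figure D3:**
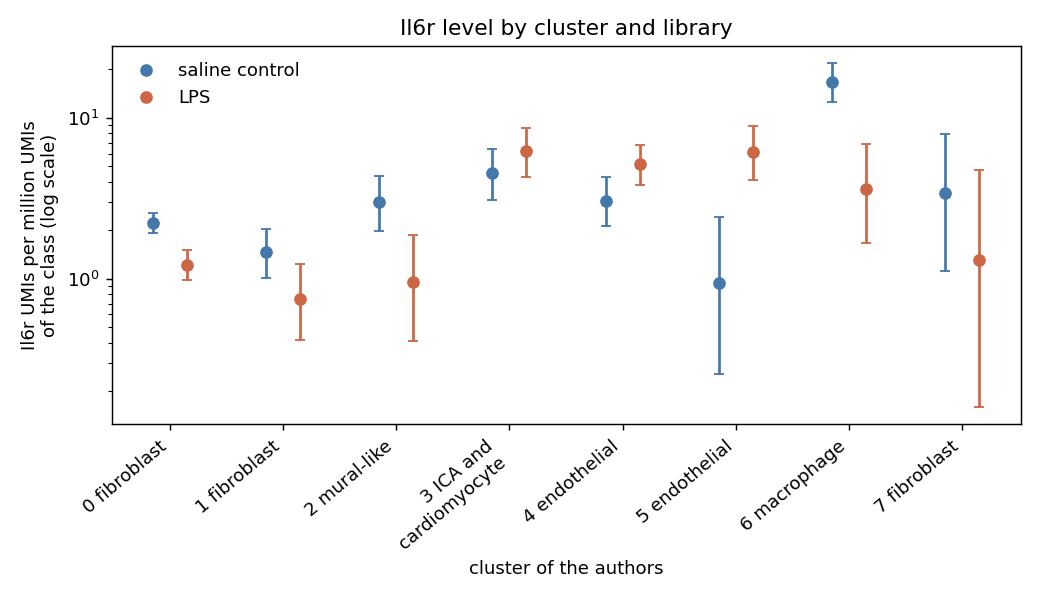
*Il6r* level in CPM in each cluster (log axis) in the control and the LPS library, with 95% Poisson intervals as bars. The LPS point lies below control in the fibroblast, mural-like and macrophage clusters and above it in endothelial clusters 4 and 5 and in cluster 3, where the bars of clusters 3 and 4 overlap.

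The shares of cells with an *Il6r* UMI were small. After thinning, *Il6r* was found in 3.56% of control and 1.72% of LPS macrophages (15.7% and 3.09% unthinned), and these intervals overlap (1.72 to 6.45% and 0.562 to 3.98%). In cluster 5 the thinned shares were 0.286% (1 of 350 cells) and 1.61% (7 of 436), or 1.14% and 5.87% unthinned. The thinned intervals overlap there too (0.00723 to 1.58% and 0.648 to 3.28%). In fibroblast cluster 0, set beside as a class expected to be low in *Il6r*, the thinned shares were 0.894% and 0.313% (2.95% and 1.27% unthinned). The control level of *Il6r* in cluster 0 was 1.53 times (1.07 to 2.26) that of cluster 1. It was 13.4% (9.81 to 18.5%) of the macrophage level, where the macrophage markers stood at 0.67% (0.41 to 1.35% singly). Cluster 0 was not taken as a zero level for *Il6r*, and the part of macrophage RNA was not tested. Median depths in control and LPS were 8846 and 6900 UMIs in cluster 6, 10171.5 and 8998 in cluster 5 and 12968 and 9821.5 in cluster 0. With thinned cells the log2 ratio of *Il6r* was −1.18 in macrophages and −1.51 in cluster 0, in place of −2.21 and −0.87.

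*Il6st* (ENSRNOG00000013963), the shared gp130 chain, was found in every cluster and differed little between conditions. It had 1449 UMIs in control (9.49 CPM) and 1295 in LPS (10.2 CPM), a ratio of 1.07 (0.991 to 1.15). Fibroblast cluster 0 stood at 9.33 and 10.4 CPM, a ratio of 1.11 (1.01 to 1.23), endothelial cluster 4 at 13.4 and 11.9 CPM, and macrophages at 7.71 and 6.84 CPM. In all 8 clusters counted the ratio lay within 2-fold, and in 7 of them its interval included 1. Scaled to the median gene, the macrophage ratio of 0.888 became 1.10. Macrophages were set beside as a class taken to be low in *Il6st*, *Osmr* and *Lifr*. The levels of *Il6st* and *Osmr* given below did not bear this out. The thinned share of macrophages with *Il6st* was 1.42% in control and 2.41% in LPS (8.54% and 5.15% unthinned). In cluster 0 it was 2.65% and 2.71% (11.9% and 10.2% unthinned). The control macrophage levels of *Il6st* and *Osmr* were 82.6% (52.6 to 124%) and 85.7% (43.9 to 151%) of those in cluster 0. The fibroblast markers stood at 33.4% (28.0 to 42.6% singly). In LPS macrophages *Il6st* stood at 65.9% (38.2 to 106%) and *Osmr*, on 6 UMIs, at 56.9% (20.7 to 125%). The markers there stood at 27.8% (22.7 to 35.8% singly). Macrophages were not taken as a zero level for these genes, and the part of fibroblast RNA was not tested.

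*Osmr* (ENSRNOG00000033192), the oncostatin M receptor chain, had 638 UMIs in control (4.18 CPM) and 494 in LPS (3.87 CPM), a ratio of 0.926 (0.822 to 1.04), which scaling to the median gene turned to 1.01. Fibroblast clusters 0 and 1 stood between 4.16 and 4.50 CPM in both conditions. Endothelial cluster 4 held 40 UMIs in control (3.60 CPM) and 16 in LPS (1.64 CPM), a ratio of 0.457 (0.239 to 0.835), but with cells thinned to 3000 UMIs its log2 ratio moved from −1.13 to −0.14. *Lifr* (ENSRNOG00000011696) had 114 UMIs in control (0.747 CPM) and 81 in LPS (0.635 CPM), a ratio of 0.850 (0.631 to 1.14), and cluster 0 held 68 and 39 of them. In macrophages *Lifr* had 2 UMIs in control and 0 in LPS, where a count of 0 allows up to 1.21 CPM.

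**Figure D4:**
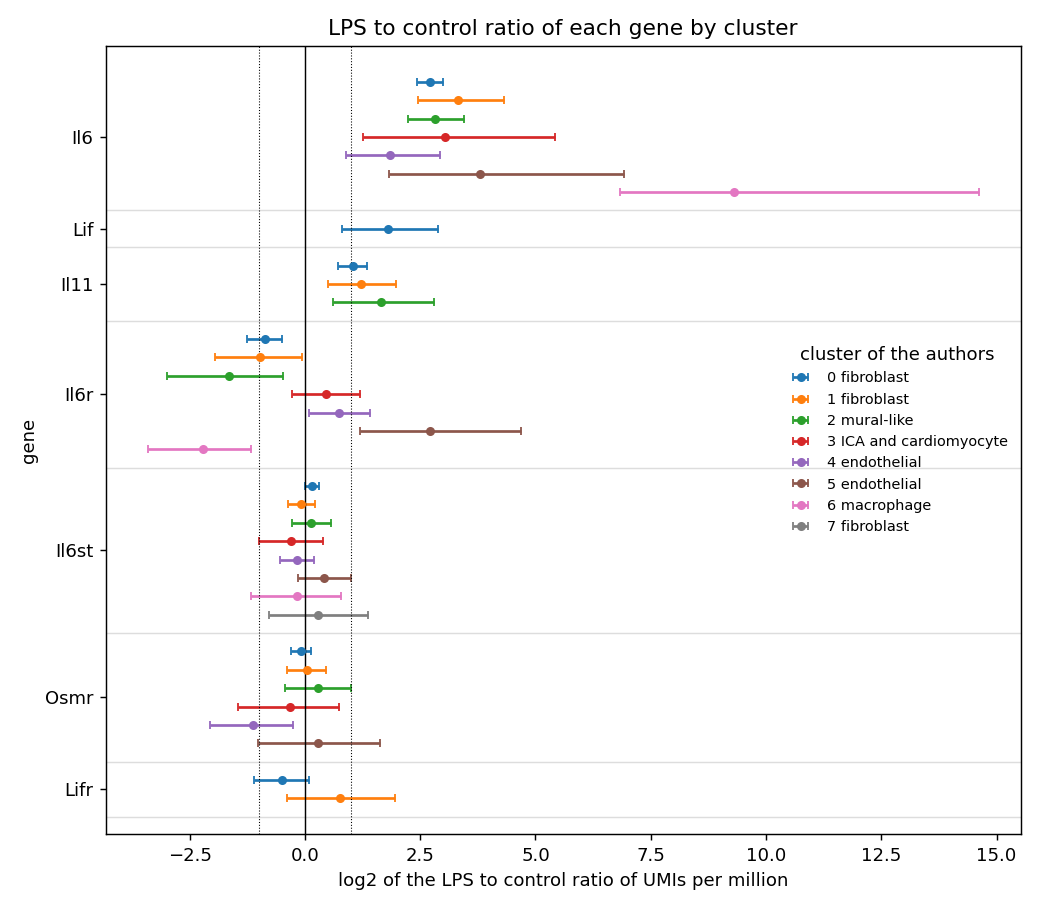
Log2 of the LPS to control ratio of CPM for each of the 7 genes in each cluster where both libraries held at least 20 UMIs together, with 95% intervals, and dotted lines at 2-fold. *Il6* points all lie right of 0, *Il6r* points lie on both sides and *Il6st* points lie near 0.

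Counted by cluster, the members differed from one another as follows. In the mural-like cluster 2, *Il6* and *Il11* were at least 2-fold higher and *Il6r* at least 2-fold lower among 5 counted members, where 3.06% of genes were higher and 7.07% lower. In endothelial cluster 4, *Il6* was higher and *Osmr* lower among 4, where 3.03% and 6.6% of genes were. In endothelial cluster 5, *Il6* and *Il6r* were higher and none lower among 4, where 4.86% and 6.74% were. In macrophages, *Il6* was higher and *Il6r* lower among 3, where 4.73% and 16.2% were. With at most 3 members on a side these counts describe the named genes and no more. They depend on the processing. With thinned cells the log2 ratio of *Osmr* in cluster 4 was −0.14, under 2-fold. Over the alternatives tried that of *Il11* in cluster 2 went down to 0.99, also under 2-fold.

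Among the other genes of the pathway, 1 of the 6 further ligand genes counted over all cells, *Ebi3*, was at least 2-fold higher, where 3.55% of all genes counted were. The lists were chosen with earlier results of these data known, so their counts are descriptions. *Ebi3*, a subunit of IL-27 and IL-35, went from 1469 UMIs (9.63 CPM) to 4791 (37.6 CPM), a ratio of 3.90 (3.68 to 4.14). Its ratio was highest in the endothelial clusters, from 19.0 to 169 CPM in cluster 4 (ratio 8.89, 7.70 to 10.3) and from 19.1 to 199 CPM in cluster 5 (ratio 10.4, 8.31 to 13.3). Macrophages held the highest level, 210 CPM in control and 518 CPM in LPS. *Il27*, the partner subunit of IL-27, had 0 UMIs in control and 3 in LPS. *Osm*, which encodes oncostatin M, was found mainly in macrophages, with 41 UMIs in control and 56 in LPS, a ratio of 1.71 (1.12 to 2.63), and *Clcf1*, a ligand of the ciliary neurotrophic factor receptor, was at 7.06 and 19.3 CPM there, a ratio of 2.73 (1.62 to 4.76).

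Of 3 further receptor chains counted over all cells, 1 was at least 2-fold lower, where 10% of all genes were, and none higher, where 3.55% were. That gene, *Cntfr*, the ciliary neurotrophic factor receptor, went from 425 to 93 UMIs (2.78 to 0.729 CPM), a ratio of 0.262 (0.207 to 0.328), with 0.255 (0.191 to 0.338) in cluster 0 and 0.211 (0.100 to 0.407) in cluster 2. *Il11ra1*, the chain that binds IL-11, went from 15058 to 8287 UMIs (98.7 to 65.0 CPM), a ratio of 0.658 (0.641 to 0.676), and was at 0.605 (0.584 to 0.627) in cluster 0, where its ligand *Il11* was at 2.05. *Il27ra*, the IL-27 receptor chain, was at 1.57 (1.08 to 2.31). Of the proteases that shed the IL-6 receptor, *Adam17* was at 1.94 (1.85 to 2.04) and *Adam10* at 0.604 (0.544 to 0.671).

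Of 9 signalling genes counted over all cells, 1 was at least 2-fold higher, against 3.55% of all genes, and none lower, against 10%. *Jak2*, a kinase bound to gp130, went from 2976 to 21748 UMIs (19.5 to 170 CPM), a ratio of 8.74 (8.41 to 9.09), and among clusters 0 to 7 its ratio ran from 3.94 in macrophages to 14.0 in endothelial cluster 5. *Stat3*, the main transcription factor of the pathway, was at 1.40 (1.37 to 1.44). Of 13 known target genes counted, 5 were at least 2-fold higher, against 3.55% of all genes, and none lower, against 10%. These were *Bcl3* (3.78), *Cebpb* (2.47), *Myc* (2.27), *Socs1* (2.17) and *Hamp* (2.00), genes that other inflammatory signals are also known to raise. The value of *Hamp* lies at the 2-fold limit. The median log2 ratio of the 13 target genes was 0.95, against −0.15 for all genes counted. *Hamp* is a leading gene of cluster 3. *Socs3*, the feedback inhibitor of gp130 signalling, was sparse, with 97 UMIs in control and 59 in LPS, and the interval of its ratio of 0.728 (0.517 to 1.02) includes 1.

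**Figure D5:**
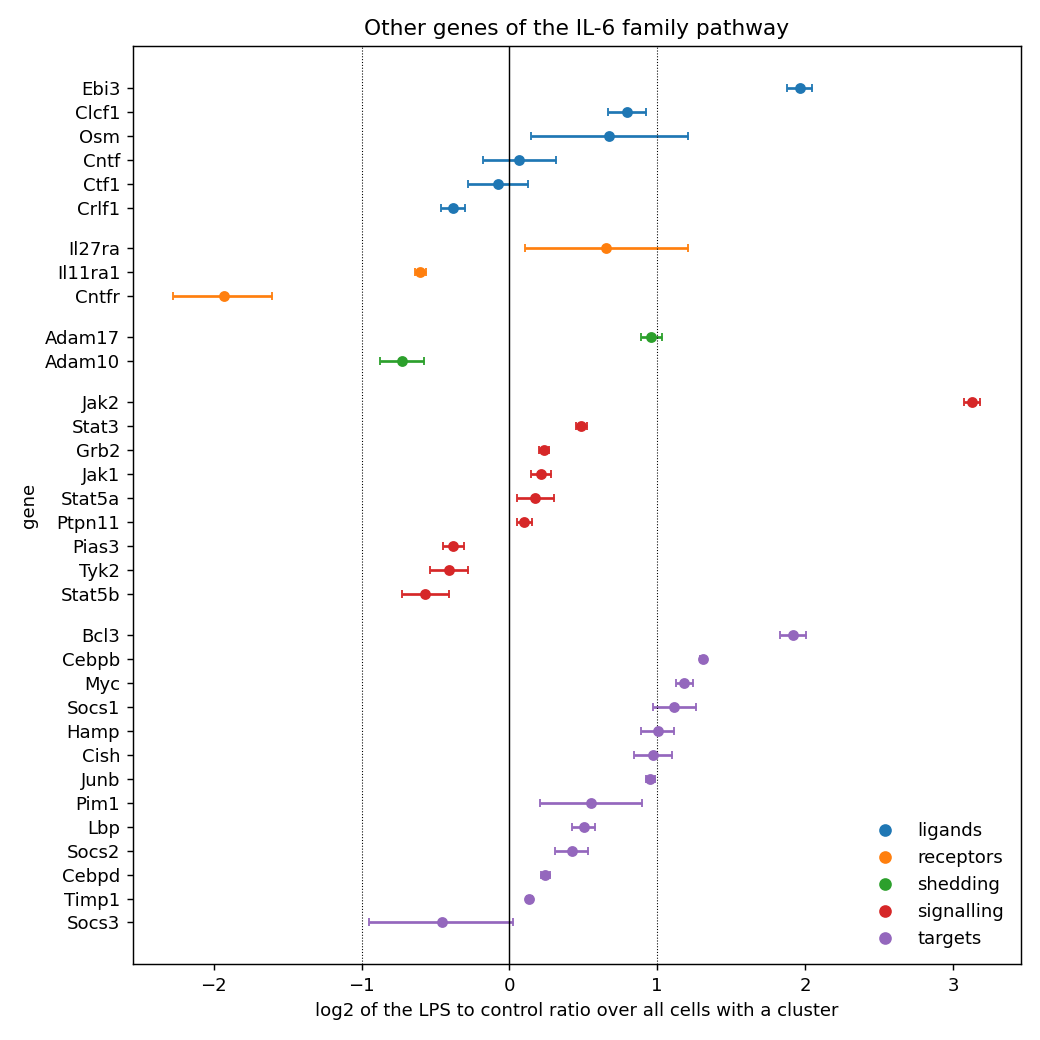
Log2 of the LPS to control ratio over all cells with a cluster for the counted genes of the pathway lists, grouped by role and ordered within each group, with 95% intervals and dotted lines at 2-fold. *Jak2* at a ratio of 8.74 lies farthest right and *Cntfr* at 0.262 farthest left.

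The genes most like each member over the 22 classes (11 clusters in each library) were named by Pearson correlation of log2(CPM + 1), as a description. The classes share libraries and differ widely in depth. For *Il6* these were *Arl5c* (0.82), *Junb* (0.82) and *Slc25a37* (0.81), for *Il11* *Atp10a* (0.83), *Grem1* (0.83) and *Tnfrsf9* (0.81), and for *Il6r* *Mtmr9* (0.82), *Gmip* (0.80) and *Pptc7* (0.79). For *Il6st* the highest was *Prpf6* (0.83), for *Osmr* *Abca8a* (0.84), for *Lifr* *Zfp870* (0.88) and for *Lif* *Ptbp2* (0.63), whose correlations rest on few UMIs.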

How the data were processed

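Per the labels and the study's methods, single-cell 3′ libraries were made with a 10X Genomics v2 kit. The submitters' processing notes name Cell Ranger 2.2.0 and Seurat 2.3.4. The genome build and annotation are not given in the sources used here. The authors deposited filtered matrices of raw UMI counts per gene and cell, with a table giving each cell's cluster and cell type, and these were used as deposited, with no further filter on cells or doublets.

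UMI counts were summed per gene, cluster and library and divided by the summed UMIs of that class (counts per 1000000 UMIs, CPM). Intervals are exact 95% Poisson intervals for levels, exact conditional intervals for ratios and Clopper-Pearson intervals for shares, in Python 3.11.15 with scipy 1.17.1. A ratio was counted with at least 20 UMIs in both libraries together, and 2-fold was the size described. A count of 0 was given the limit of 3 UMIs. For shares of cells with a UMI, each cell was thinned to 3000 UMIs, which left out 79 shallower LPS cells. Libraries with 1 sample per condition allow no test. Scripts were tested on simulated data. Promoter motifs were searched as exact letters on both strands. The 3 genes most like each member were taken among genes with at least 200 UMIs.

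The 7 members are named in full, and genes of the pathway lists where their ratio over all cells was at least 2-fold either way or where a member's partner called for them. Members and lists were chosen with earlier results of these data known. Some genes of the lists are not analysed here. The 10 cells without a cluster were left out and held 0 UMIs of the members. Alternatives tried were another scaling, the mean of the cells' own values, filters on cells, thinning and other minimum counts, and 3 were added after seeing the data.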

Additional observations from a re-analysis of the deposited data

Results flagged for a closer look

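*Il6r* lay on opposite sides of no change in 2 clusters, with a ratio of LPS to control of 6.54 (2.29 to 25.6) in endothelial cluster 5 and 0.217 (0.094 to 0.444) in macrophage cluster 6. *Socs2*, which encodes a suppressor of cytokine signalling, stood at 3.40 (2.71 to 4.29) in cluster 5 and 0.753 (0.649 to 0.873) in fibroblast cluster 0. The difference between the clusters was not tested in either case, since each condition is 1 library.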

How the results depend on the processing

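No paired analysis was possible because control and LPS are a single library each. Of the 239 recomputed log2 ratios of the members, 234 stayed within the counting interval of the reported value, and changes of sign among them were confined to *Il6st* and *Osmr* ratios near no change. The 5 that moved were *Il6st* over all cells at 0.23 with median-ratio scaling, *Il6r* over all cells at −0.83, *Il6r* in cluster 0 at −1.51 and *Osmr* in cluster 4 at −0.14 with cells thinned to 3000 UMIs, and *Il6* over all cells at 2.76 without cluster 6. Thinning reversed *Tyk2* in cluster 1 (0.17), *Hamp* in cluster 2 (−0.079) and *Lbp* in cluster 5 (−0.13), and the cause was not tested. Of the other recomputed ratios of pathway genes 1310 stayed and 138 moved. With median-ratio scaling the ratios over all cells of *Adam17* (2.13), *Cish* (2.15) and *Junb* (2.12) passed 2-fold. Within their intervals, the highest value of *Il6r* in cluster 4 (1.15) and the lowest of *Lifr* in cluster 0 (−1.01) passed 2-fold. The share of genes at least 2-fold higher in LPS with at least 1 UMI in each library was 4.98% in cluster 2 and 4.99% in cluster 4, and the share lower was 11.3%, 10.4% and 12.3% in clusters 2, 4 and 5. With a minimum of 50 UMIs the share lower was 4.28% in cluster 2 and 4.08% in cluster 4. With median-ratio scaling the shares in cluster 6 were 7.43% higher and 9.62% lower. Leaving out cells with a macrophage marker UMI and leaving out cluster 6 were added after seeing the data, as was the comparison with macrophage markers. Thinning left no control UMI of *Il6* or *Osmr* in cluster 5, nor of *Lif* over all cells or in cluster 0. These ratios, and so both counted ratios of *Lif*, have no value with thinned cells. Of the shares of cells, 60 moved without thinning and 40 moved and 20 stayed when thinned to 1500 UMIs.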

Other observations

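The genes in the next sentences were chosen after their values were seen. In endothelial cluster 5, *Il27ra*, the IL-27 receptor chain, had 5 UMIs in control and 17 in LPS, a ratio of 3.17 (1.12 to 11.01), and *Adam17*, the main protease that sheds the IL-6 receptor, went from 18.8 to 44.6 CPM, a ratio of 2.37 (1.82 to 3.11). In macrophages *Adam17* stood at 37.2 CPM in control and 50.3 in LPS, a ratio of 1.35 (1.04 to 1.75). The rise was not particular to cluster 5, as the ratio of *Adam17* was 2.36 in cluster 7, 2.00 in cluster 0, 1.99 in cluster 1 and 1.90 in endothelial cluster 4. *Adam10* in cluster 5 was at 0.566 (0.366 to 0.866).

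*Socs1*, a feedback inhibitor of JAK kinases, had unlike ratios among clusters, chosen here after its values were seen. Fibroblast cluster 7, which is led by interferon-response genes, went from 2 to 36 UMIs, a ratio of 17.3 (4.45 to 148), and the mural-like cluster 2 from 32 to 132 UMIs, a ratio of 4.5997 (3.11 to 6.997), beside 1.78 (1.55 to 2.05) in cluster 0.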
